A study of Oryza sativa with 20 samples.

Results

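The genes described are 10 regulators and targets of the drought and abscisic acid (ABA) response in rice, taken from a list of names put together with earlier results of these data known; no threshold on a measured value was used. They are NCED3 (LOC_Os03g44380), PP2C30 (LOC_Os03g16170), bZIP23 (LOC_Os02g52780), bZIP46 (LOC_Os06g10880), DREB2A (LOC_Os01g07120), SNAC1 (LOC_Os03g60080), NAC5 (LOC_Os11g08210), NAC6 (LOC_Os01g66120), RAB21 (LOC_Os11g26790) and LEA3. Of the 21237 gene rows in the count table, 9 matched these genes by MSU7 locus. LEA3 (listed as LOC_Os05g46480) had no row under that locus and was matched to 1 row by its name in the reference annotation, so its counts are given apart. All 10 passed the filter on low counts.

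Abscisic acid is the hormone through which plant roots and leaves register water shortage. It is made by cleavage of carotenoids, binds PYL receptors, and the bound receptors inhibit clade A protein phosphatases (PP2C), which frees SnRK2 kinases (SAPK in rice) to activate bZIP transcription factors. Those factors, with NAC and DREB proteins, switch on late embryogenesis abundant (LEA) proteins and dehydrins that protect cells during drying, and also the phosphatase genes themselves.

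RNA was sequenced from roots of 5 rice (Oryza sativa) cultivars, each given 4 libraries. They are Azucena and Bala, and beside them Sarali, Niyan Wee and Moddai Karuppan. The last 3 are taken here as the Sri Lankan cultivars that the study's title speaks of. The labels name no drought, hormone or other treatment and no plant age. All values are thus levels in root tissue under growth conditions that are not named, nor stated to be the same for all libraries. The labels also do not say that libraries of a cultivar came from separate plants, so p-values measure only the spread between these libraries.

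Total counts per library lay between 23444550 and 31996643, of which ribosomal RNA took 4.07% to 84.6%. The share of ribosomal RNA averaged 73.2% ± 9.09 (SD, n = 4) in Bala and 31.0% ± 23.5 in Niyan Wee, so fewer counts were left for other genes in Bala (as few as 3813615 in replicate 4). All 6 root marker genes had counts in every cultivar. Over the 20 libraries NIP2-1, the silicon channel, was at 59.9 to 617 CPM, NAS1 at 0.415 to 50.7 and IRT1 at 0.555 to 3.37. These markers were not level between cultivars: 5 of 6 differed among the 5 cultivars (edgeR), against 28.4% of all genes. In the Sri Lankan mean against Bala 4 of 6 were lower and 1 higher (median log2 fold change -1.49). Of all genes, 10.2% were called lower and 7.81% higher there. NIP2-1 had a mean of 404 CPM in Bala and 92.2 in Moddai Karuppan. The part of these marker differences in the results below was not tested. CPM is the count scaled by library size after TMM correction, ribosomal RNA included. The 1 leaf marker with a row (RBCS2) was at 0.128 to 3.61 CPM and the 1 seed marker with a row (GLUA2) at 1.19 to 3.82 CPM. Both ranges overlapped with that of the root marker IRT1. The levels are not corrected for transcript length, so each gene is compared only with itself across cultivars. In whole roots, fewer cells of a type and less RNA per cell cannot be told apart.

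Among the members, the phosphatase gene PP2C30 and the dehydrin gene RAB21 differed among the 5 cultivars, and both had their highest means in Moddai Karuppan or Niyan Wee. NAC5 was higher in Azucena than in the mean of the 4 others. None of these 3 results held throughout. PP2C30 did not pass with the ribosomal RNA share in the model (edgeR adjusted p = 0.107). RAB21 did not pass without Moddai Karuppan replicate 4 (0.294), nor NAC5 without Azucena replicate 3 (0.466). The remaining members matched by locus passed none of the 4 comparisons over several cultivars. Counted over the 9 genes matched by locus, 2 passed the test for any difference among the 5 cultivars (edgeR quasi-likelihood test, adjusted p below 0.05 over all genes tested), against 28.4% of the 21225 genes tested. With LEA3 the count was 3 of 10. By unadjusted p below 0.05 it was 6 of 9, and DESeq2 called 5. The shares of all genes by these measures are not given here, so these counts cannot be set against the 28.4%.

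**Figure D1:**
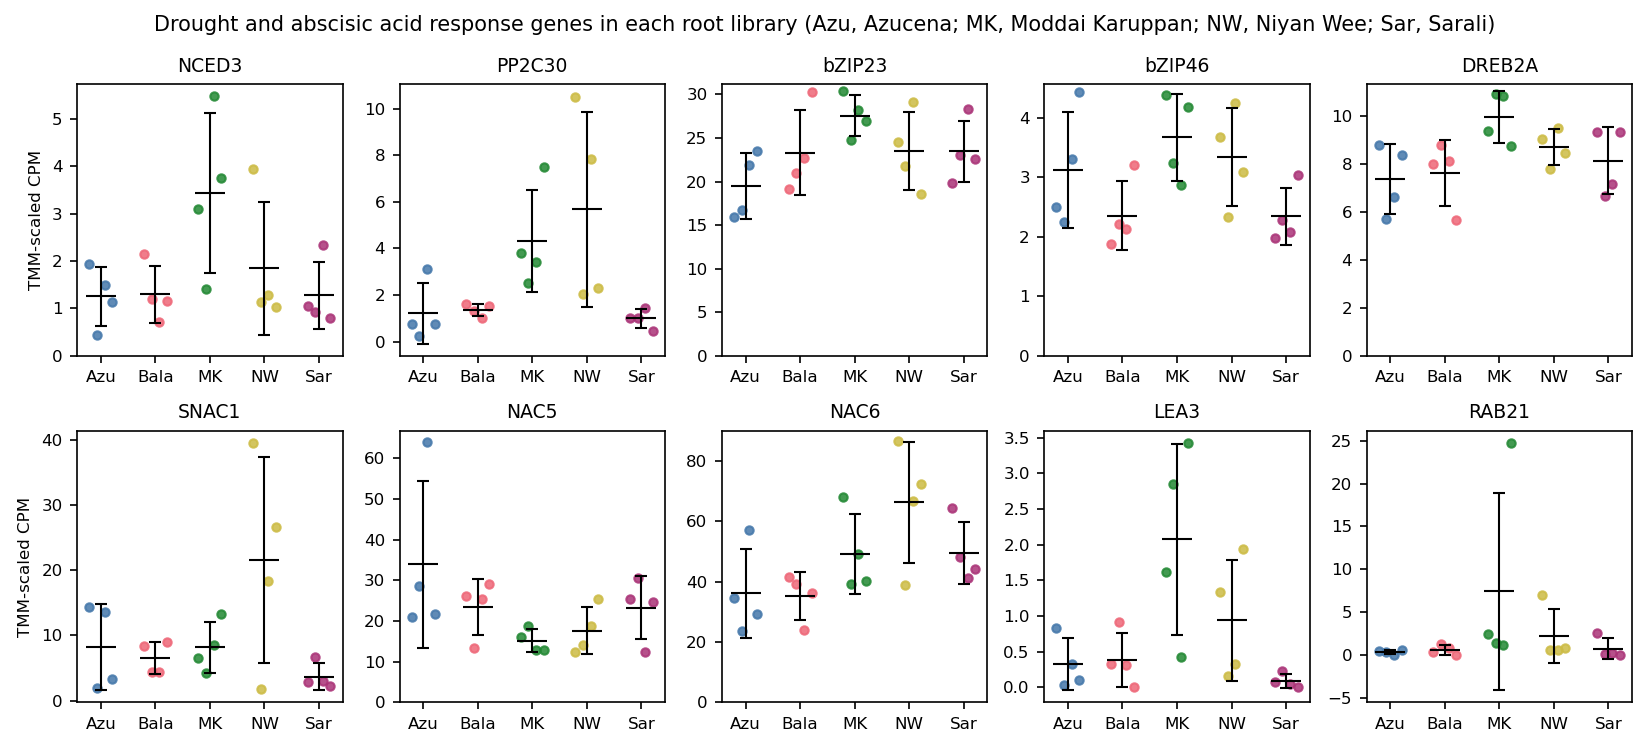
TMM-scaled CPM (vertical axes, linear, each gene on its own scale) of the 10 genes in each of the 4 root libraries of 5 cultivars; points are libraries, the wide bar the mean and the whiskers 1 SD. PP2C30 and LEA3 have their highest means in Moddai Karuppan and Niyan Wee, and the RAB21 mean of 7.42 in Moddai Karuppan contains 1 library at 24.7.

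NCED3 encodes the dioxygenase that carries out the carotenoid cleavage at the start of ABA synthesis, often the limiting step. Its level was 3.09, 1.40, 5.47 and 3.75 CPM in replicates 1 to 4 of Moddai Karuppan. The other cultivars lay at 0.45 to 3.94 CPM, with Niyan Wee at 3.94, 1.13, 1.29 and 1.03 CPM. Moddai Karuppan had the highest mean (3.43 ± 1.68 CPM, SD, n = 4), but its range overlapped with that of every other cultivar, and the other means lay between 1.26 and 1.85 CPM. The difference among the 5 cultivars did not pass (edgeR adjusted p = 0.105). It passed only when replicate 1 of Niyan Wee was left out (adjusted p = 0.041).

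PP2C30 is 1 of the clade A phosphatases that hold the SnRK2 kinases inactive until ABA is bound. In Niyan Wee it stood at 10.5, 2.07, 7.84 and 2.31 CPM, and in Moddai Karuppan at 3.82, 2.53, 3.44 and 7.51 CPM. Azucena gave 0.748, 0.24, 3.13 and 0.761 CPM. These last values were low in 3 libraries, and replicate 3 reached into the range of the 2 cultivars above it. Bala gave 1.62, 1.30, 1.03 and 1.54 CPM, and Sarali 1.03, 1.03, 1.46 and 0.476 CPM. Every library of Moddai Karuppan and Niyan Wee was therefore above every library of Bala and Sarali.

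The means of PP2C30 were 5.68 ± 4.17 CPM in Niyan Wee and 4.32 ± 2.19 in Moddai Karuppan, then 1.37 ± 0.266 in Bala, 1.22 ± 1.30 in Azucena and 0.996 ± 0.401 in Sarali (SD, n = 4 each). These rest on 56 to 679 counts per library in the first cultivar and 12 to 30 in Bala, so the lower levels carry more counting error. The difference among the 5 cultivars passed (edgeR adjusted p = 0.00692) and held with any 1 of the 20 libraries left out (adjusted p 0.00039 to 0.0218). It did not hold once the ribosomal RNA share entered the model (adjusted p = 0.107) or in the libraries labelled P2 alone, replicates 3 and 4 of each cultivar (adjusted p = 0.181). Ribosomal RNA took the smallest mean shares in the same 2 cultivars that were high for this gene, 31.0% in Niyan Wee and 42.0% in Moddai Karuppan.

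Between pairs of cultivars PP2C30 was called 4 times. It was lower in Azucena than in Niyan Wee by a log2 fold change of -2.21 ± 0.63 (SE, edgeR adjusted p = 0.0214), in a comparison that called 14% of genes. Against Moddai Karuppan, Azucena was lower too (-1.81 ± 0.62, adjusted p = 0.0468), where 20% of genes were called. Against Niyan Wee, Bala was lower (-2.06 ± 0.65, adjusted p = 0.0462, 11.1% of genes called) and Sarali was lower, with Niyan Wee minus Sarali at 2.52 ± 0.64 (adjusted p = 0.0365, 2.88% of genes called). No neighbours in the order of means were called apart: Niyan Wee with Moddai Karuppan, Moddai Karuppan with Bala (adjusted p = 0.0884, without overlap), Bala with Azucena, or Azucena with Sarali.

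None of the 4 pairwise calls of PP2C30 held in all leave-outs. The comparison of Azucena with Niyan Wee was lost on leaving out replicate 1 (adjusted p = 0.0945) or 3 (0.0589) of the latter, and replicate 1 (0.0655), 2 (0.0589) or 4 (0.0719) of the former. Niyan Wee against Sarali was lost without Niyan Wee replicate 1 (0.137) or 3 (0.1), or Sarali replicate 1 (0.0919), 2 (0.0863), 3 (0.0568) or 4 (0.126). Azucena with Moddai Karuppan was lost in 13 of 20 leave-outs (adjusted p up to 0.145) and Bala with Niyan Wee in 14 (up to 0.152). With ribosomal RNA share in the model, Azucena minus Moddai Karuppan was -1.66 (adjusted p = 0.0551) and Azucena minus Niyan Wee -1.43 (0.207). Bala minus Niyan Wee was then -0.48 (0.861) and Niyan Wee minus Sarali 1.52 (0.402).

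Among the 3 Sri Lankan cultivars alone, 0 of the 9 members passed (edgeR quasi-likelihood test, 4.02% of genes called). At unadjusted p below 0.05 there were 4, and DESeq2 called 2, with no share of all genes given for either. PP2C30 was near the threshold (adjusted p = 0.066) and passed on leaving out replicate 2 (0.0403) or 4 (0.0454) of Niyan Wee, or replicate 2 (0.0378) or 3 (0.0176) of Azucena.

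bZIP23 and bZIP46 are ABA-responsive transcription factors that act downstream of the SnRK2 kinases, and bZIP23 is known for raising drought tolerance when overexpressed in rice. bZIP23 was 15.9, 16.7, 21.9 and 23.5 CPM in Azucena and 30.4, 24.8, 28.2 and 26.9 CPM in Moddai Karuppan, so these 2 cultivars did not overlap. Bala lay at 19.2 to 30.3, Niyan Wee at 18.6 to 29.1 and Sarali at 19.8 to 28.3 CPM, with means of 23.3 to 23.5. The single call was Azucena below Moddai Karuppan (log2 fold change -0.50 ± 0.17, SE, edgeR adjusted p = 0.0458). It was lost in 9 of 20 leave-outs (adjusted p up to 0.131) and with the ribosomal RNA covariate, where the log2 fold change was -0.49 (0.0655). bZIP46 lay between 1.88 and 4.43 CPM in all 20 libraries, with cultivar means of 2.35 to 3.67 and overlapping ranges, and gave no call (adjusted p = 0.172 among the 5 cultivars).

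DREB2A encodes a factor that binds the dehydration-responsive element and acts largely outside the ABA pathway. It had the smallest coefficient of variation within cultivars of the 10 members. It lay at 5.64 to 10.9 CPM over all libraries, with means of 7.36 ± 1.45 CPM in Azucena to 9.92 ± 1.07 in Moddai Karuppan (SD, n = 4). The ranges of all cultivars overlapped, those of Azucena and Bala with Moddai Karuppan by a narrow margin, and no comparison was called (adjusted p = 0.258 among the 5 cultivars).

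NAC5, SNAC1 and NAC6 are stress-induced NAC transcription factors, and overexpression of SNAC1 in rice is known for drought resistance in the field. NAC5 was 21.1, 28.7, 64.1 and 21.7 CPM in Azucena. Moddai Karuppan gave 16.0, 18.8, 12.9 and 13.0 CPM, all below every Azucena library. Bala gave 26.1, 13.4, 25.3 and 29.0 CPM, Niyan Wee 12.3, 14.2, 18.8 and 25.4 CPM, and Sarali 25.3, 30.7, 12.4 and 24.7 CPM, and each of these 3 overlapped with Azucena.

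NAC5 was the 1 of 9 members called in Azucena against the mean of the 4 others, where 20.2% of genes were called and 12% were called higher. DESeq2 also called 1, and 2 had an unadjusted p below 0.05, with no share of all genes given for either. Its log2 fold change was 0.80 ± 0.26 (SE, edgeR adjusted p = 0.0344). Without Azucena replicate 3, the highest library, the fold change was 0.29 and the adjusted p 0.466. It was also lost without Niyan Wee replicate 1 (adjusted p = 0.0521). Azucena stood above Moddai Karuppan by a log2 fold change of 1.16 ± 0.35 (adjusted p = 0.0234). Without Azucena replicate 3 this was 0.65 (adjusted p = 0.146), and it was also lost without Moddai Karuppan replicate 1 (0.0515), 3 (0.0652) or 4 (0.0628).

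SNAC1 varied widely between libraries of the same cultivar. Niyan Wee gave 39.5, 1.79, 18.4 and 26.6 CPM, and so held both the highest and the lowest of the 20 values. Azucena gave 14.3, 1.86, 13.6 and 3.29 CPM and Moddai Karuppan 6.51, 4.17, 8.60 and 13.3 CPM. Bala lay at 4.38 to 8.98 CPM and Sarali at 2.20 to 6.76. The mean of Niyan Wee, 21.6 ± 15.8 CPM (SD, n = 4), was the highest and that of Sarali, 3.68 ± 2.08, the lowest, with all ranges overlapping.

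SNAC1 was just outside the threshold among the 5 cultivars (edgeR adjusted p = 0.055) and among the 3 Sri Lankan cultivars (0.0938). Without replicate 2 of Niyan Wee, the lowest library, the adjusted p-values were 0.00549 and 0.0111. Among the 5 cultivars SNAC1 also passed without Sarali replicate 2 (0.0434), Azucena replicate 2 (0.0411) or Azucena replicate 3 (0.045), and in DESeq2 with all libraries (0.00782).

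NAC6, also known as SNAC2, was highest in Niyan Wee at 86.7, 39.0, 66.9 and 72.5 CPM. Azucena gave 34.6, 23.6, 57.3 and 29.4 CPM and Bala 41.7, 39.2, 23.9 and 36.2 CPM. Replicate 2 of Niyan Wee lay within the range of both, and the other libraries of that cultivar lay above both. Moddai Karuppan (39.2 to 68.0 CPM) and Sarali (41.4 to 64.3 CPM) fell between, with means of 49.2 ± 13.3 and 49.5 ± 10.3 CPM (SD, n = 4).

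NAC6 was lower in Azucena than in Niyan Wee (log2 fold change -0.87 ± 0.28, SE, edgeR adjusted p = 0.0403) and lower in Bala than in Niyan Wee (-0.91 ± 0.28, adjusted p = 0.0398). Of the first, the call was lost on leaving out replicate 1 (0.133), 3 (0.0761) or 4 (0.083) of Niyan Wee, and replicate 1 (0.0867), 2 (0.133) or 4 (0.119) of Azucena. The second was lost on leaving out replicate 1 (0.124), 3 (0.0772) or 4 (0.0771) of Niyan Wee, and replicate 1 (0.0505), 3 (0.12) or 4 (0.0908) of Bala. With ribosomal RNA share in the model the log2 fold changes were -0.64 (adjusted p = 0.177) and -0.39 (0.67).

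In the Sri Lankan mean against Bala, 0 of the 9 members passed (edgeR, 18% of genes called). By unadjusted p below 0.05 there was 1, and DESeq2 called 1, with no share of all genes given for either. NAC6 came nearest, at a log2 fold change of 0.63 ± 0.23 (adjusted p = 0.0708). It passed without Niyan Wee replicate 2 (0.0339) or Azucena replicate 3 (0.0363). In Azucena against the others NAC6 was -0.43 ± 0.22 (adjusted p = 0.197), and -0.74 (0.0255) without Azucena replicate 3. Among the 5 cultivars it gave an adjusted p of 0.0633, which passed without Niyan Wee replicate 2 (0.0194) or Azucena replicate 3 (0.0104).

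LEA3 and RAB21 encode protective proteins at the end of the pathway, a group 3 LEA protein and a dehydrin, both induced by ABA. Both had few counts in most libraries. LEA3 had 60, 71, 19 and 113 counts in Moddai Karuppan (1.61, 2.85, 0.422 and 3.42 CPM) and 86.5, 5, 17 and 47 estimated counts in Niyan Wee (1.33, 0.157, 0.328 and 1.94 CPM). In Sarali it had 3, 5, 1 and 0 counts (0.077, 0.233, 0.0416 and 0 CPM, where 0 counts allow up to 0.11 CPM). All 4 Sarali libraries were below all 4 Moddai Karuppan libraries. Azucena ranged from 0.03 to 0.836 CPM and Bala from 0 to 0.911, where the 0 in Bala replicate 4 allows up to 0.385 CPM. These limits cover counting error only.

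LEA3 differed among the 5 cultivars (edgeR adjusted p = 0.018), a call lost without Moddai Karuppan replicate 4 (0.0559). Moddai Karuppan stood above Sarali by a log2 fold change of 4.57 ± 1.11 (SE, adjusted p = 0.0373), where 1.75% of genes were called. That call was lost without Sarali replicate 1 (0.111), 3 (0.133) or 4 (0.125), without Moddai Karuppan replicate 1 (0.0605), 2 (0.0846) or 4 (0.1), or without Bala replicate 1 (0.0501). Among the 3 Sri Lankan cultivars LEA3 gave an adjusted p of 0.0551 and passed in 6 leave-outs (0.0378 to 0.0484): Niyan Wee replicate 2 or 4, Moddai Karuppan replicate 3, Bala replicate 4, and Azucena replicate 1 or 2.

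RAB21 had 91, 34, 53 and 816 counts in Moddai Karuppan (2.45, 1.36, 1.18 and 24.7 CPM). In Niyan Wee it had 450, 19, 32 and 19 counts (6.96, 0.597, 0.616 and 0.783 CPM), and in Sarali 100, 3, 5 and 1 (2.57, 0.14, 0.208 and 0.0366 CPM). In each of these 3 cultivars 1 library stood far above the other 3. Azucena had 9, 12, 0 and 18 counts (0.396, 0.36, 0 and 0.623 CPM), the 0 allowing up to 0.0903 CPM, and Bala had 5, 30, 10 and 0 (0.324, 1.30, 0.793 and 0 CPM). RAB21 belongs to a cluster of very similar genes that includes RAB16B and RAB16D, so its counts are uncertain to the extent that reads were shared among them.

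RAB21 passed among the 5 cultivars (edgeR adjusted p = 0.0371), but without Moddai Karuppan replicate 4 the adjusted p was 0.294. It was also lost without Azucena replicate 1 (0.0606), 2 (0.0621) or 4 (0.0509), Bala replicate 1 (0.058), 3 (0.0536) or 4 (0.0522), or Sarali replicate 3 (0.0502). Azucena was below Moddai Karuppan without overlap, at a log2 fold change of -4.43 ± 1.36 (SE, adjusted p = 0.0257). On leaving out Moddai Karuppan replicate 4 it was -2.27 (adjusted p = 0.214), and it was lost as well without Azucena replicate 1 (0.0562), 2 (0.0557) or 3 (0.0609).

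Over all 10 pairs of cultivars, 9 of 90 tests of the members matched by locus were called (10 of 100 with LEA3), against 11% of all tests of all genes. The members' share was thus near that of all genes. The median log2 fold change of the 9 members was -0.32 in Azucena against the others and 0.42 in the Sri Lankan mean against Bala. Over all genes tested the medians were 0.018 and 0.007.

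**Figure D2:**
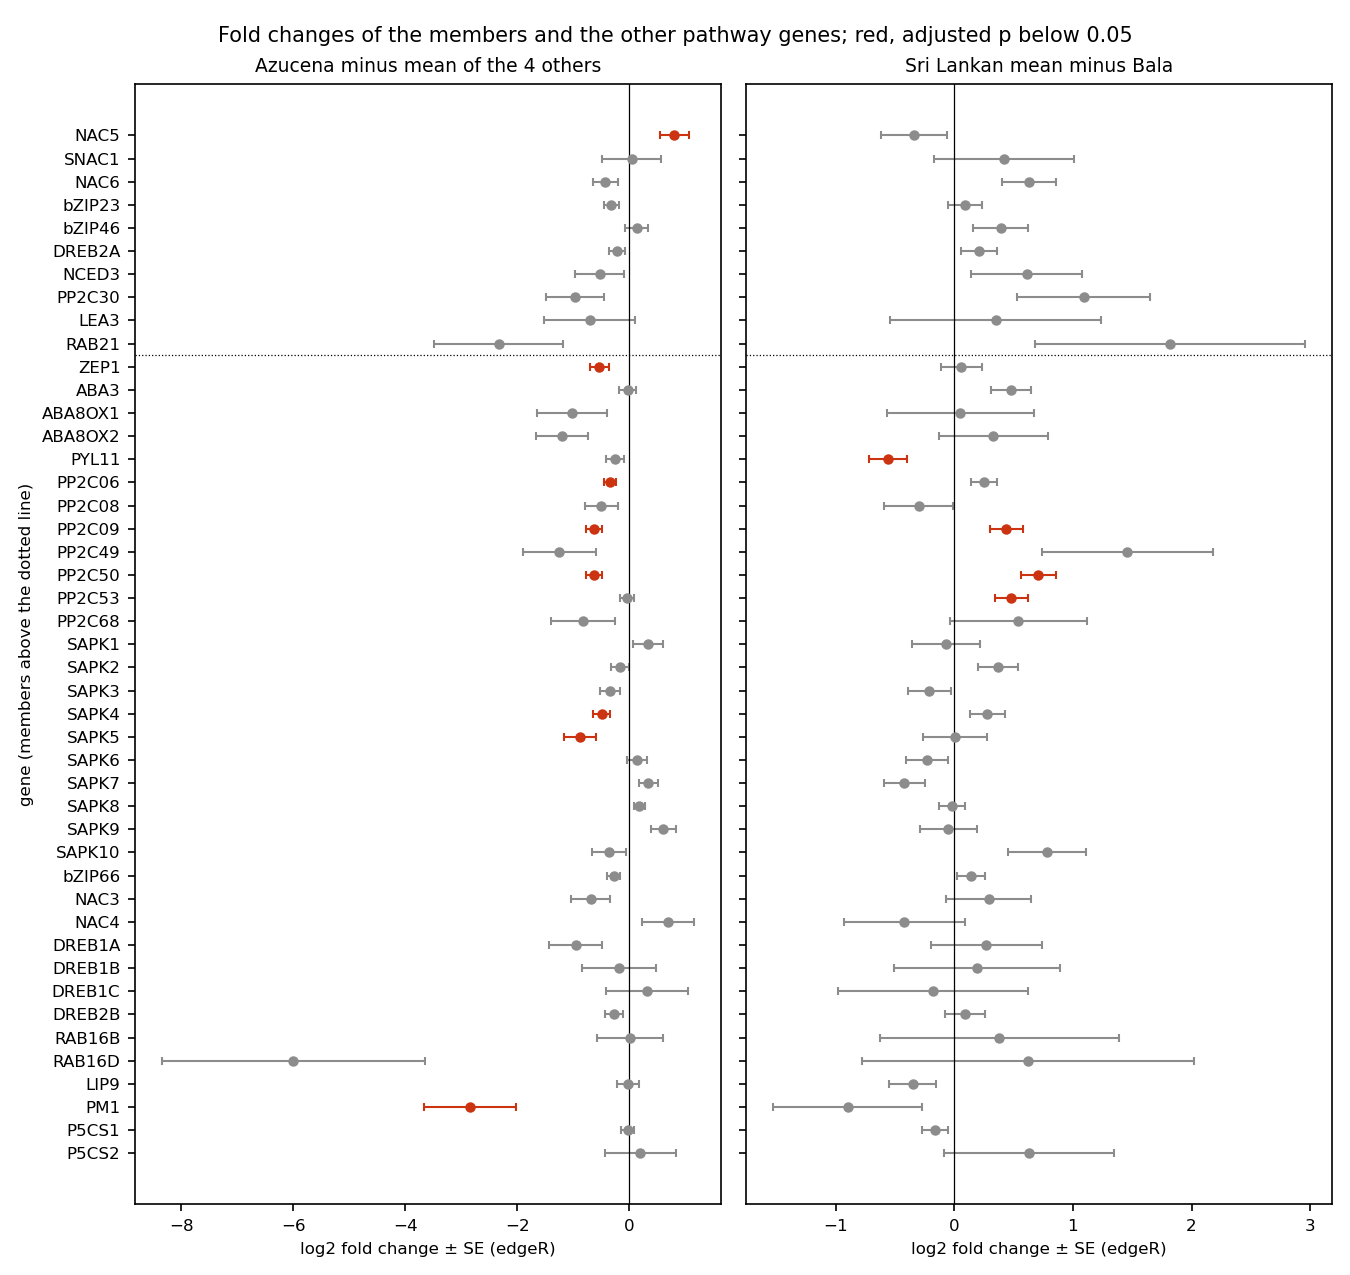
Log2 fold change with its SE (edgeR) of the 10 members, above the dotted line, and of the other pathway genes in Azucena minus the mean of the 4 others (left) and the Sri Lankan mean minus Bala (right); red marks an adjusted p below 0.05. NAC5 at 0.80 is the only red member. Of the 35 other pathway genes, 7 on the left are red, where 20.2% of all genes were called. All 7 lie below 0, where 8.17% of all genes were called lower.

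The members differed in how much libraries of 1 cultivar varied. The coefficient of variation within cultivars was 14.8% for DREB2A, 16.6% for bZIP23, 25% for bZIP46 and 29.3% for NAC6, around the median of all genes (26.3%). It was 46.9% for NAC5, 60.2% for NCED3, 80.8% for PP2C30, 82.8% for SNAC1, 97.8% for LEA3 and 237% for RAB21. The members with the widest gap between cultivar means were also those with wide spread: the highest mean was 23.6 times the lowest for LEA3, 21.5 times for RAB21, 5.86 times for SNAC1 and 5.7 times for PP2C30. Single libraries set several of these ratios. For RAB21 the ratio was 6.5 without Moddai Karuppan replicate 4 and 57.9 without Sarali replicate 1. For LEA3 it was 52.5 without Sarali replicate 2, where 3 libraries with 0 to 3 counts remain, and for PP2C30 9.75 without Azucena replicate 3. The same ratio over all libraries was 1.35 for DREB2A and 1.42 for bZIP23, against a median of 1.66 for all genes.

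Particular libraries were high or low for many members. The share of all genes highest or lowest in the same libraries is not given here, so these counts do not set the members apart. Niyan Wee replicate 1 was the highest of its cultivar for 5 of the 10 genes (SNAC1, NAC6, NCED3, PP2C30 and RAB21), and replicate 2 was the lowest for 7. Azucena replicate 2 was the lowest of its cultivar for 7, and Moddai Karuppan replicate 2 and Sarali replicate 4 for 5 each. Moddai Karuppan replicate 4 was the highest for SNAC1, PP2C30, LEA3 and RAB21, and Azucena replicate 3 for NAC5, NAC6 and PP2C30. Niyan Wee replicate 1 also had the lowest share of ribosomal RNA of all libraries (4.07%). Azucena replicate 2, lowest for 7 genes, had the lowest share in Azucena (40.8%). Whether this share bears on which libraries were high or low was not tested apart from the correlations below.

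**Figure D3:**
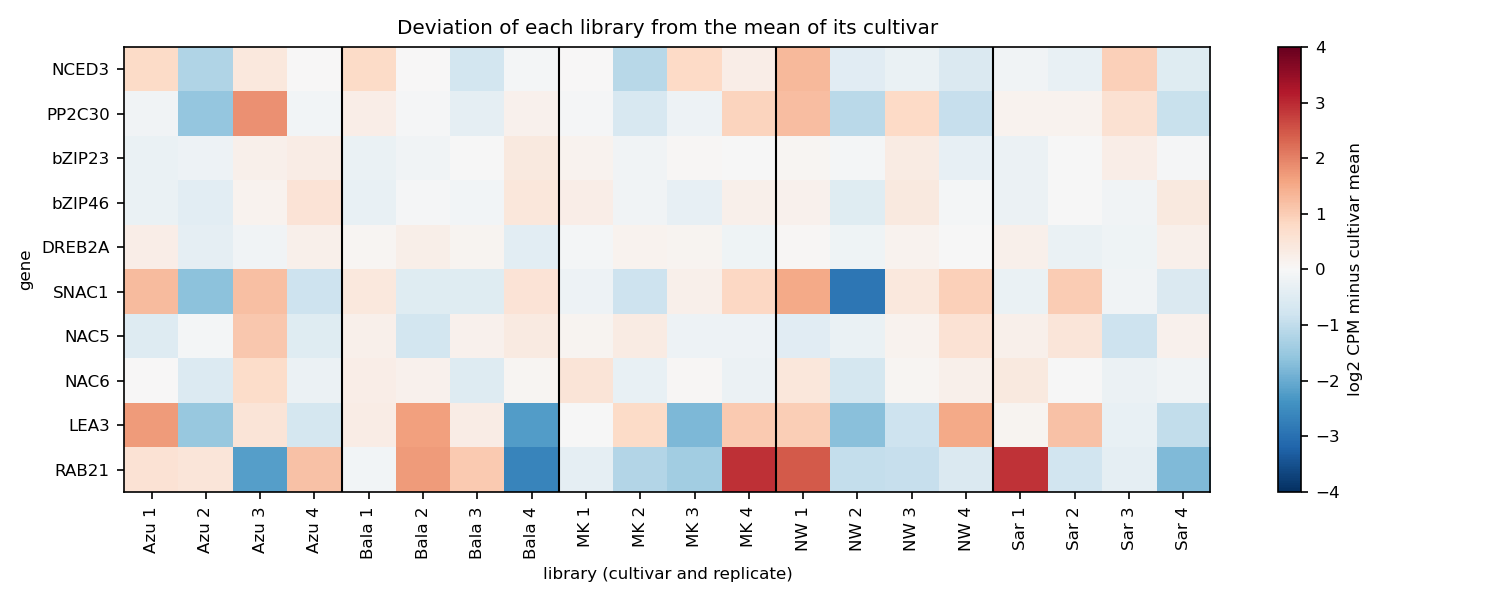
Log2 CPM of each gene in each of the 20 libraries minus the mean of its cultivar; red is above and blue below that mean, and vertical lines part the cultivars. Among the strongest are SNAC1 in Niyan Wee replicate 2 (-2.89) and RAB21 in Moddai Karuppan replicate 4 (2.93) and Sarali replicate 1 (2.9). RAB21 in Bala replicate 4 (-2.65) and Niyan Wee replicate 1 (2.45) follow, while the rows of bZIP23 and DREB2A stay pale.

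With the cultivar means removed, 34 of the 45 pairs of members had a correlation above 0 over the 20 libraries (median r = 0.16). In all 55 relations were tested, the 45 pairs and each member against the share of ribosomal RNA, by permutation within cultivars. After Benjamini-Hochberg adjustment 0 pairs passed, 8 had an unadjusted p below 0.05 and 6 did so by rank. The strongest was bZIP23 with bZIP46 (r = 0.69, rho = 0.64, permutation p = 0.00727, adjusted p = 0.171; r = 0.57 without the 2 most extreme libraries). NCED3 with PP2C30, the synthesis gene with the phosphatase, had r = 0.67 (permutation p = 0.00638, adjusted p = 0.171; r = 0.52 without 2 libraries). SNAC1 had r = 0.67 with both NAC6 and PP2C30 (permutation p = 0.0124 and 0.0103, adjusted p = 0.171 for each), and 0.46 and 0.53 without 2 libraries. No member's relation with the ribosomal RNA share passed, the largest being RAB21 at r = -0.44 (permutation test, adjusted p = 0.338).

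SNAC1 also varied with other genes of the pathway, in relations that were examined after the members' values had been seen. Of 33 pathway genes, 4 passed with SNAC1 and 0 with PP2C30 (66 permutation tests adjusted together). At unadjusted p below 0.05 there were 9 and 6. The share of all genes that vary with SNAC1 in this way was not computed, so these counts do not set the pathway apart from other genes. Among these 4 the largest r was that of ABA8OX1, a hydroxylase that breaks down ABA (r = 0.82, rho = 0.80, permutation p = 0.00027, adjusted p = 0.00891; r = 0.78 without the 2 most extreme libraries). DREB1A and DREB1B, cold-induced relatives of DREB2A, had r = 0.77 and 0.76 (permutation test, adjusted p = 0.0346 for each), and 0.74 and 0.76 without 2 libraries. The kinase gene SAPK1 had r = 0.63 (permutation test, adjusted p = 0.00891; 0.59 without 2 libraries). ZEP1, the epoxidase that supplies the ABA precursor, had r = 0.83 but did not pass (permutation test, adjusted p = 0.0546; by rank rho = 0.76, adjusted p = 0.0392; r = 0.64 without 2 libraries).

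**Figure D4:**
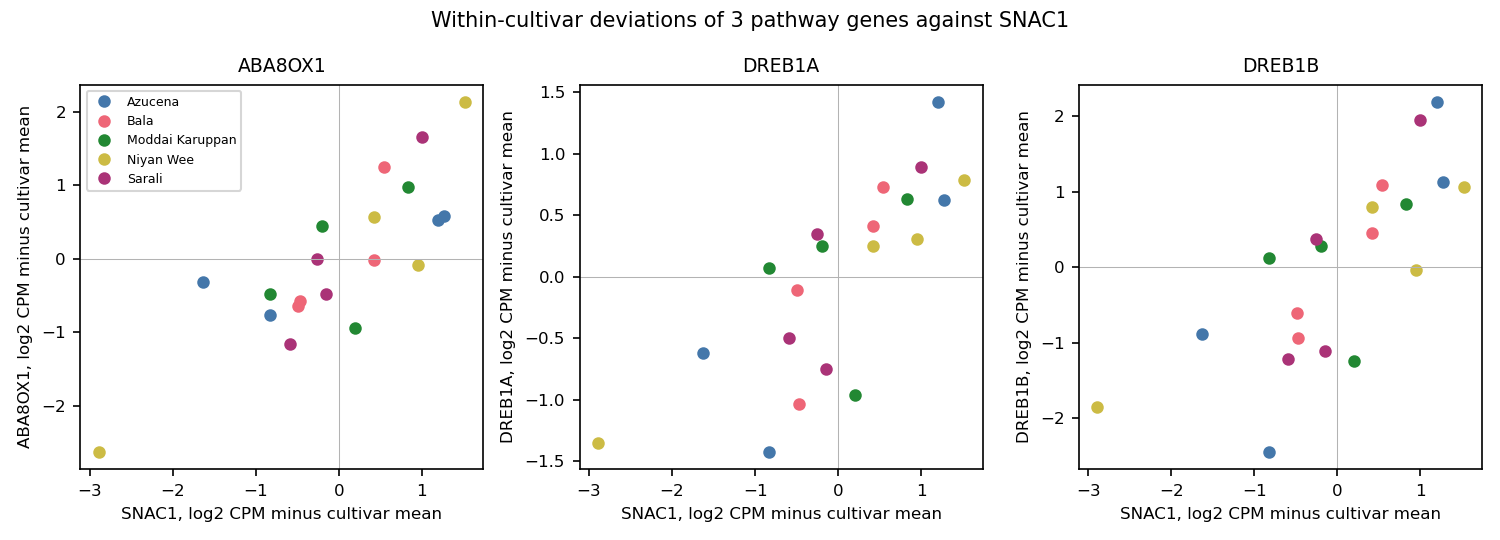
Log2 CPM minus cultivar mean of ABA8OX1, DREB1A and DREB1B (vertical axes) against that of SNAC1 (horizontal axis), each point 1 of the 20 root libraries, coloured by cultivar. Pooled over the 5 cultivars, the deviations have r of 0.82, 0.77 and 0.76; the relation within any 1 cultivar rests on 4 points and was not tested.

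The other genes of the pathway were counted in the same comparisons. Of 33 pathway genes matched by locus and named in the reference, 8 differed among the 5 cultivars (edgeR, against 28.4% of all genes). Among the 3 Sri Lankan cultivars 0 did (edgeR, 4.02% of all genes). DESeq2 called 2 there and 7 had an unadjusted p below 0.05, with no share of all genes given for either. In Azucena against the others 7 passed, against 20.2% of all genes. All 7 were lower (8.17% of all genes were called lower), with a median log2 fold change of -0.35 over the 33. With the listed loci that the reference does not name, 10 of 50 passed, 9 lower and 1 higher. In the Sri Lankan mean against Bala 3 passed, against 18% of all genes: 2 were higher (7.81% of all genes) and 1 lower (10.2%), with a median of 0.14 over the 33. Over all 10 pairs of cultivars 27 of 330 tests were called, against 11% for all genes.

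Among the clade A phosphatases other than PP2C30, 3 of 6 matched by locus differed among the 5 cultivars, against 28.4% of all genes. PP2C53, matched by name, did not pass (edgeR adjusted p = 0.106). PP2C50 stood at 6.77, 10.5, 8.19 and 9.17 CPM in Azucena and 8.30, 9.76, 8.88 and 10.4 CPM in Bala. In the Sri Lankan cultivars it was 13.8 to 18.6 CPM in Moddai Karuppan, 13.1 to 22.1 in Niyan Wee and 11.9 to 15.3 in Sarali. Every Sri Lankan library was above every library of Azucena and Bala. The gene differed among the 5 cultivars (edgeR adjusted p = 0.000895), with Azucena lower (log2 fold change -0.63 ± 0.15, SE, adjusted p = 0.00338) while Bala lay below the Sri Lankan mean (0.71 ± 0.15, adjusted p = 0.00289). These 3 calls held with any 1 library left out, but the last did not hold with the ribosomal RNA covariate (0.39, adjusted p = 0.251).

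PP2C09 had means of 13.4 ± 3.24 CPM (SD, n = 4) for Azucena and 16.5 ± 1.61 for Bala. The Sri Lankan libraries ranged from 17.2 to 28.4 CPM, which overlapped with both. It was lower in Azucena than in the others (log2 fold change -0.63 ± 0.14, SE, edgeR adjusted p = 0.00261) and higher in the Sri Lankan mean when set against Bala (0.44 ± 0.14, adjusted p = 0.0398). The first held in all leave-outs and the second was lost in 11 of 20. PP2C06 was lower in Azucena (-0.35 ± 0.11, adjusted p = 0.0281), lost without Azucena replicate 1 (0.0805), 2 (0.0887) or 4 (0.0626). It also differed among the 5 cultivars (0.0285, lost in 6 of 20 leave-outs). PP2C53, matched by name, was above Bala in the Sri Lankan mean (0.48, adjusted p = 0.0237), lost without Bala replicate 3 (0.0708) or 4 (0.0999).

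**Figure D5:**
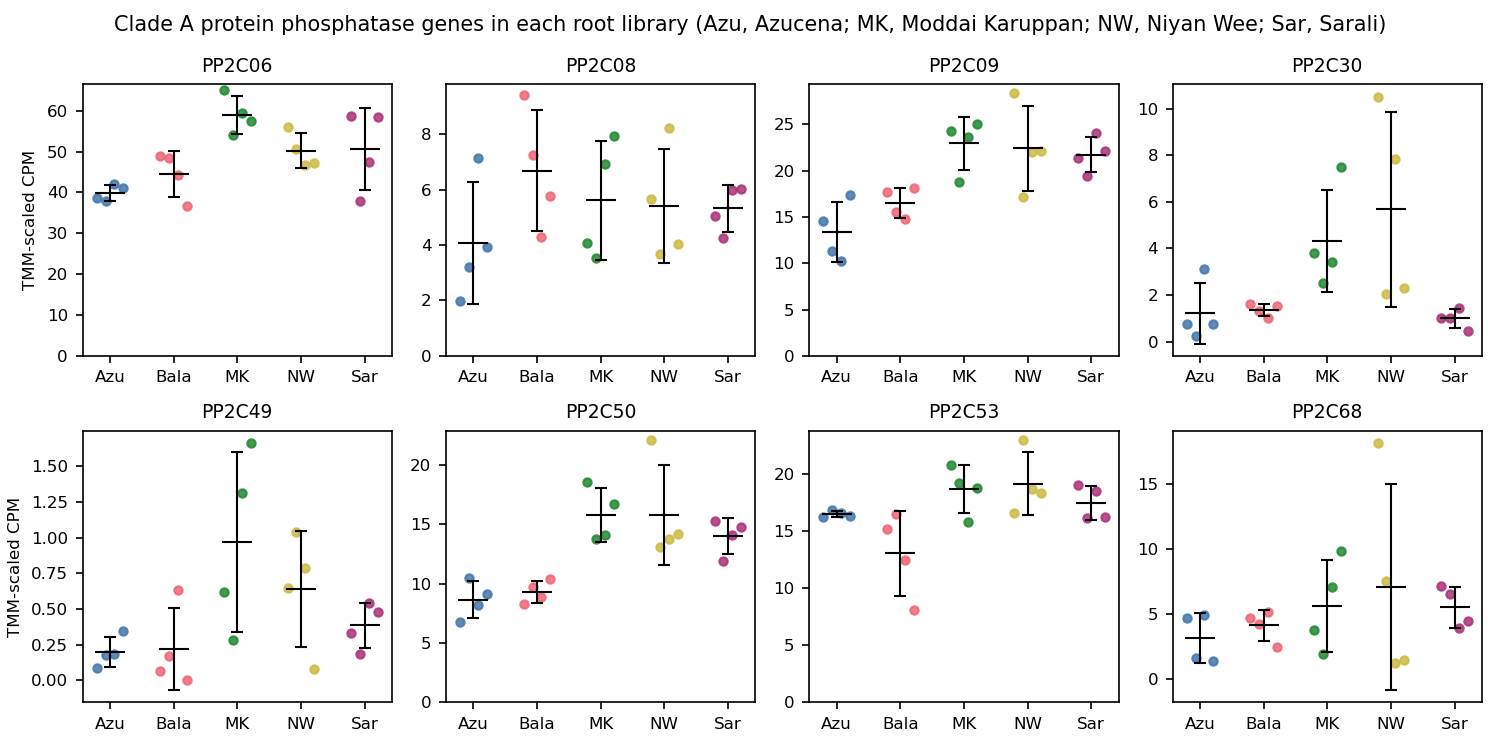
TMM-scaled CPM (vertical axes, linear, each gene on its own scale) of 8 clade A phosphatase genes in each of the 4 root libraries of 5 cultivars; points are libraries, the wide bar the mean and the whiskers 1 SD. For PP2C50 every Sri Lankan library, from 11.9 CPM upward, lies above every library of Azucena and Bala.

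Of the 10 SnRK2 kinase genes, 2 differed among the 5 cultivars, against 28.4% of all genes. They were SAPK4 (edgeR adjusted p = 0.0181, held in all leave-outs) and SAPK9 (0.0429, lost in 12 of 20). In Azucena against the others SAPK4 was lower at a log2 fold change of -0.49 (adjusted p = 0.023; lost without Azucena replicate 1 at 0.0775, 3 at 0.103 or 4 at 0.0528). SAPK5 was lower at a log2 fold change of -0.88 (adjusted p = 0.032; lost without Azucena replicate 1 at 0.0922, 2 at 0.13 or 4 at 0.135). ZEP1 was lower in Azucena at a log2 fold change of -0.54 (adjusted p = 0.0279; lost without Azucena replicate 1 at 0.0608, 2 at 0.104 or 4 at 0.0925). The receptor gene PYL11 was lower in the Sri Lankan mean, relative to Bala, at a log2 fold change of -0.56 (adjusted p = 0.0189; lost without Bala replicate 3 at 0.0866 or 4 at 0.123).

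PM1, a membrane protein that imports ABA into rice cells, was 0.044, 0, 0.331 and 0.138 CPM in Azucena, from at most 11 counts per library, the 0 allowing up to 0.0899 CPM. Bala gave 0.713, 2.56, 2.14 and 0.641 CPM and Moddai Karuppan 2.37, 0.241, 1.31 and 3.33 CPM, so Moddai Karuppan reached down into the Azucena range and Bala did not. Sarali, at 0.103 to 0.769 CPM with a mean of 0.317 ± 0.305 (SD, n = 4), also overlapped with Azucena, and Niyan Wee, at 0.503 to 1.93 CPM, did not. It differed among the 5 cultivars (edgeR adjusted p = 0.0144, held in all leave-outs). In Azucena against the others it was lower at a log2 fold change of -2.84 ± 0.82 (SE, adjusted p = 0.0174), lost without Azucena replicate 1 (0.0586), 2 (0.0553) or 4 (0.0513). ABA8OX1 (adjusted p = 0.0456, lost in 13 of 20 leave-outs) and NAC3 (0.0298, lost without Niyan Wee replicate 1 at 0.118 or 3 at 0.0518) also differed among the 5 cultivars. Of the 4 DREB genes besides DREB2A, 0 passed this test, with adjusted p-values from 0.0906 (DREB1A, unadjusted p = 0.0325) to 0.323.

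The genes with the most similar profiles were ranked by Pearson r of log2 CPM over the 20 libraries among 2235 genes with a symbol, as a description that includes differences between cultivars. For SNAC1 they were MYB2 (r = 0.90), OsWRKY71 (0.88) and JAZ10 (0.87). For PP2C30 they were OsPP2C32 (0.80), DREB1E (0.80) and CML18 (0.78), and for NCED3 PP2C30 itself (0.71), OsGH3-2 (0.68) and JAMYB (0.68). bZIP23 was most like another ABA-responsive bZIP gene, TRAB1 (0.65), then OSK24 (0.64) and OsTPK1 (0.62). For NAC6 they were LOG (0.83), OsPP2C44 (0.83) and OsPP2C29 (0.79), and for NAC5 DOF2 (0.74), MPK2 (0.74) and OsTIP4;1 (0.73). LEA3 was most like CML14 (0.81), CML18 (0.78) and OsTLP10 (0.76), and RAB21 like PDHE1-A (0.76), FTSH1 (0.74) and OsC3H2 (0.73). bZIP46 was most like CYP734A6 (0.72), DREB1E (0.60) and OsPP2C02 (0.58). For DREB2A they were SS1 (0.76), ABIL1, which is PP2C06 (0.75), and OsCASPL5B2 (0.75).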

How the data were processed

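Root RNA from 5 rice cultivars, 4 libraries each, was extracted with TriReagent and made into stranded total RNA libraries after ribosomal RNA depletion, per the labels' protocols (the molecule field of the labels reads polyA RNA). Per the submitters' processing notes, reads were processed with HISAT2 and edgeR 3.36.0 on IRGSP-1.0; the counting step was not given in the sources used here. Per gene, the authors deposited estimated counts, of which 7.58% were not whole numbers, although plain counts had been foreseen for the tests; they were rounded here. The 2 rows naming no gene held 0% of counts and were left out.

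Genes were kept by edgeR's filter (minimum count 10, 21225 tested), scaled by TMM and tested with edgeR 4.0.16 quasi-likelihood fits in R 4.3.3 over all 20 libraries, without a block, with Benjamini-Hochberg adjustment over all genes tested. The tests asked for any difference among all 5 cultivars or among the 3 Sri Lankan ones, and set Azucena against the others' mean, Bala against the Sri Lankan mean, and each cultivar against each other (10 pairs). CPM is scaled by all TMM-corrected counts, ribosomal RNA included; log2 values use a prior count of 2. The SE of a log2 fold change is approximate: it is the size of the fold change divided by the square root of its F statistic in edgeR. Correlations used 100000 permutations within cultivars. The alternatives were DESeq2 1.42.0, other scaling and filters, the ribosomal RNA share or the P1 or P2 mark in the labels as a covariate, ribosomal RNA genes left out, P1 or P2 libraries alone, a replicate block and leave-outs. The fit was tested on simulated data with the same dispersion for every gene and changes in Azucena only. That setting does not cover the members whose libraries varied widely.

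The members and lists were chosen with earlier results of these data known. Named were all members, pathway genes past a comparison over several cultivars, and the 3 most similar genes of each member among those with a mean of at least 1 CPM. Listed loci that the reference table (ASM3414082v1) does not name were left out of the counts; 20839 of 21237 rows matched that table. No 2 libraries of a cultivar agreed within sampling noise (lowest chi-square per gene 14.9 over 30 pairs).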

Additional observations from a re-analysis of the deposited data

Results flagged for a closer look

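Of 105 groups of 4 libraries (21 named genes in 5 cultivars), 8 had 1 library farther from the other 3 than Dixon's test allows at the 95% level. For independent, normally distributed values chance flags about 1 in 20 groups. The values here were linear CPM, some near 0, and the genes share libraries, so that rate need not hold. RAB21 had 3 of the 8 flags, at 24.7 CPM in Moddai Karuppan replicate 4 (the others at 1.18 to 2.45), 6.96 CPM in Niyan Wee replicate 1 (0.597 to 0.783) and 2.57 CPM in Sarali replicate 1 (0.0366 to 0.208). NCED3 was at 3.94 CPM in Niyan Wee replicate 1 (1.03 to 1.29) and 2.33 CPM in Sarali replicate 3 (0.806 to 1.05). PP2C50 was at 22.1 CPM in Niyan Wee replicate 1 (13.1 to 14.2). PM1 was at 1.93 CPM in Niyan Wee replicate 1 (0.503 to 0.742) and 0.769 CPM in Sarali replicate 4 (0.103 to 0.208). Niyan Wee replicate 1 held 4 of the 8.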

How the results depend on the processing

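No result changed direction under any alternative. The shares of all genes called under the alternatives are not given here. The counts below therefore show how calls moved, not how members compare with all genes. Of the members matched by locus, 2 passed among the 5 cultivars. This was 5 with DESeq2, 1 with the ribosomal RNA covariate, 1 without Bala replicates 3 and 4, 4 without Sarali replicate 3 and both replicates 2 and 3 of Niyan Wee, 1 in the libraries labelled P1 alone and 0 in those labelled P2. With LEA3 (3 in all) the counts were 6 with DESeq2, 5 without those last 3 libraries, 1 in P1 and 0 in P2. Members called among the Sri Lankan cultivars (0) became 2 with DESeq2 and 1 without the 3 libraries. The 1 in Azucena against the others became 0 without the 3 libraries and in P1 and P2 alone. The 0 in the Sri Lankan mean against Bala became 1 with DESeq2 and 1 without the 3 libraries. The 9 pairwise calls became 16 with DESeq2, 2 with the ribosomal RNA covariate, 5 without Bala replicates 3 and 4, 1 in P1 and 0 in P2.

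Of pathway genes, the 8 among the 5 cultivars became 14 with DESeq2, 5 with the covariate, 1 in P1 and 0 in P2. The 0 among the Sri Lankan cultivars became 2 with DESeq2 and 1 with the P1 or P2 label as a covariate. The 7 in Azucena became 1 in P1 and 2 in P2. The 3 in the Sri Lankan mean against Bala became 0 with the covariate, 0 in P1, 1 in P2, 1 without Bala replicates 3 and 4, 6 without the 3 libraries and 7 with loci the reference does not name. P1 and P2 each hold 2 libraries per cultivar and so fewer samples; other causes were not tested.

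With 1 library left out, members called ranged from 1 to 4 among the 5 cultivars (1 to 5 with LEA3), 0 to 2 among the Sri Lankan cultivars, 0 to 2 in Azucena, 0 to 1 against Bala and 3 to 12 between pairs. Pathway genes ranged from 5 to 12, 0 to 1, 2 to 10 and 1 to 5.

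No clear pairing of libraries by replicate number was seen. Over 40 same-number pairs the correlation of deviations ran from -0.3 to 0.32 (median 0.05). Over 120 pairs with different numbers it ran from -0.36 to 0.41 (median -0.02). Of the 20 libraries, 6 correlated best with their own number. These values cannot exclude a weak pairing. With a replicate block, 1 member passed among the 5 cultivars and 0 in Azucena, 1 pathway gene passed among the Sri Lankan cultivars, and 1 pair of members varied together (bZIP23 with bZIP46). The block ended the calls of RAB21 among the 5 cultivars (adjusted p = 0.0838), NAC5 in Azucena (0.0729), PP2C30 in Bala against Niyan Wee (0.0704), LEA3 in Moddai Karuppan against Sarali (0.0698), ABA8OX1 among the 5 cultivars (0.16) and SAPK5 in Azucena (0.0634), in edgeR.

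Depth outside ribosomal RNA was lowest in Bala, where NCED3 had 9 to 33 counts per library, PP2C30 12 to 30, LEA3 0 to 21 and RAB21 0 to 30.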
